A study of Mus musculus with 24 samples.

Results

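The genes described here were at a level at least 8 times higher with AU15330 than without it, whether or not cisplatin was present. A gene was taken when its mean level was at least 5 CPM (counts per 1000000 reads of the library) in the libraries with AU15330 alone and in those with the combination, when the AU15330 mean was at least 8 times the DMSO mean, and when the combination mean was at least 8 times the cisplatin mean. Genes with symbols starting with Hox, Dlx, Col, Itg, Lam or Mmp were set aside. The rule found 34 of the 25229 genes in the table, of which 20428 had at least 1 count and 9913 met the level threshold. Before symbols were set aside there were 38 genes, and the 4 left out were Dlx1, Dlx2, Hoxc8 and Hoxc10. The level and the fold threshold were met by 119 genes in AU15330 over DMSO and by 46 in combination over cisplatin. The same rule turned round, for genes lower by that fold, found 242 genes with no symbol set aside.

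RNA was sequenced from ID8 P53 KO cells, a mouse ovarian cancer line with the Trp53 gene knocked out, in 4 groups of 6 libraries. The groups received the vehicle DMSO, AU15330 at 2.5 µM, cisplatin at 750 nM, or AU15330 at 2.5 µM with cisplatin at 750 nM, each for 6 days before RNA extraction. The cisplatin dose is that of the labels, and the study's methods give a different one for senescence in these cells. All 24 libraries shared the cell line, the Trp53 knockout, the medium with 4% FBS and insulin-transferrin-selenium, and poly(A) selection with a strand-marking kit. Cisplatin is a platinum drug that cross-links DNA and is given in this study to drive the cells into senescence. AU15330 is a proteolysis-targeting chimera, a molecule that brings its target to the cell's own protein degradation machinery, and its targets are SMARCA4 and the paralog SMARCA2. It acts on the protein, so the mRNA does not check the labels: the mean level of Smarca4 was 230 ± 20.2 CPM with DMSO and 399 ± 12.3 with AU15330 (SD, n = 6 each). Trp53 mRNA averaged between 21.1 and 39.5 CPM across the groups, and with no unedited library in the comparison these levels do not check the knockout.

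SMARCA4 and SMARCA2 are the alternative ATPase motors of the SWI/SNF complexes, which slide and evict nucleosomes and so open promoters and enhancers. These complexes are known both to keep genes accessible and, at other sites, to counteract or cooperate with repressors, so loss of the motors lowers some genes and raises others. The genes taken here are among those raised, by construction.

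Library totals ran from 17592588 to 25260009 reads, so 3 counts corresponded to between 0.119 and 0.171 CPM in a single library. The labels do not say that replicates came from separate cultures, so the p-values below measure the spread between these libraries, which may be technical. Wt1, a transcription factor gene of mesothelial and ovarian surface cells, averaged between 632 and 971 CPM across the groups. Msln was detected in every group, the keratin genes Krt8, Krt18 and Krt19 averaged 317, 608 and 1679 CPM with DMSO, the epithelial adhesion gene Epcam did not exceed 0.114 CPM in any library, and the pan-leukocyte gene Ptprc did not exceed 0.284 CPM. Of 15 leukocyte markers 2 passed the filter on low counts, and the summed level of the list ran from 12.4 to 28.6 CPM with DMSO, 18.3 to 54.7 with AU15330, 12.1 to 18.2 with cisplatin and 26.2 to 44.8 with the combination. The part of other cell types in the values below was not tested, and in bulk RNA fewer expressing cells and less RNA per cell cannot be told apart.

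The rule fixed the direction of AU15330 over DMSO and of combination over cisplatin, so these folds are a description of the genes taken and carry no test. The median fold was 34.9 in AU15330 over DMSO and 11.8 in combination over cisplatin, and the first fold was the larger for 32 of the 34 genes. For the other 2, Nts and Amelx, the first fold is a lower bound, so the order of their folds is not known. All 34 genes had every AU15330 library above every DMSO library, as 30.2% of the 12941 tested genes did, and every combination library above every cisplatin library, as 28.0% did. The lowest AU15330 library was at least 5.86 times the highest DMSO library for each of the 34 genes, and the lowest combination library at least 3.71 times the highest cisplatin library. Together the 34 genes took 188 to 277 CPM of a DMSO library and 4415 to 5100 CPM of an AU15330 library. They took 276 to 307 CPM of a cisplatin library and 2785 to 3492 CPM of a combination library.

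**Figure D1:**
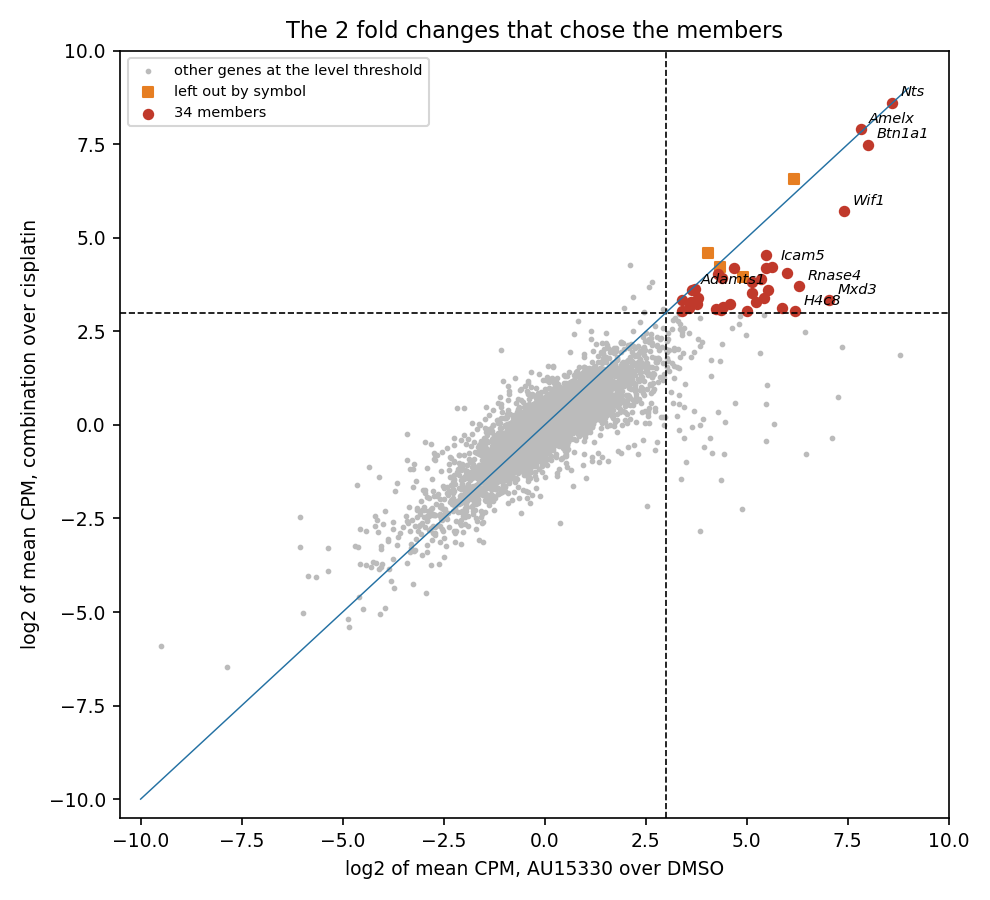
Each point is 1 of the 9913 genes at the level threshold, placed by the log2 of its mean CPM ratio in AU15330 over DMSO (horizontal) and in combination over cisplatin (vertical). Red points are the 34 members, orange squares the 4 genes set aside by symbol, dashed lines the thresholds and the blue line equal folds; all members but Nts and Amelx lie below the blue line, and genes with no counts in DMSO or cisplatin are drawn at the lower bound that 3 counts over the group allow.

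Not all of these genes were silent in DMSO. The mean was under 1 CPM for 21 of them in DMSO and for 14 in cisplatin, and 3 genes, Serpinb9, Slc40a1 and Adamts1, exceeded 10 CPM in DMSO, so for those the word induced describes the data better than switched on. Those 3 genes also made up most of the summed level, with 3003 to 3573 CPM of an AU15330 library and 1884 to 2432 CPM of a combination library. Nts and Amelx had no read in any of the 6 DMSO libraries. The genes just inside the fold threshold, by the smaller of the 2 folds, were Fyb at 8.21, Rassf5 at 8.25, H4c8 at 8.27, Serpinb9 at 8.43 and Txndc16 at 8.61. Just outside it were Gstp1 at 7.88, Pcdhgb2 at 7.86, Abhd3 at 7.61, Man1c1 at 7.57 and Prph at 7.54.

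**Figure D2:**
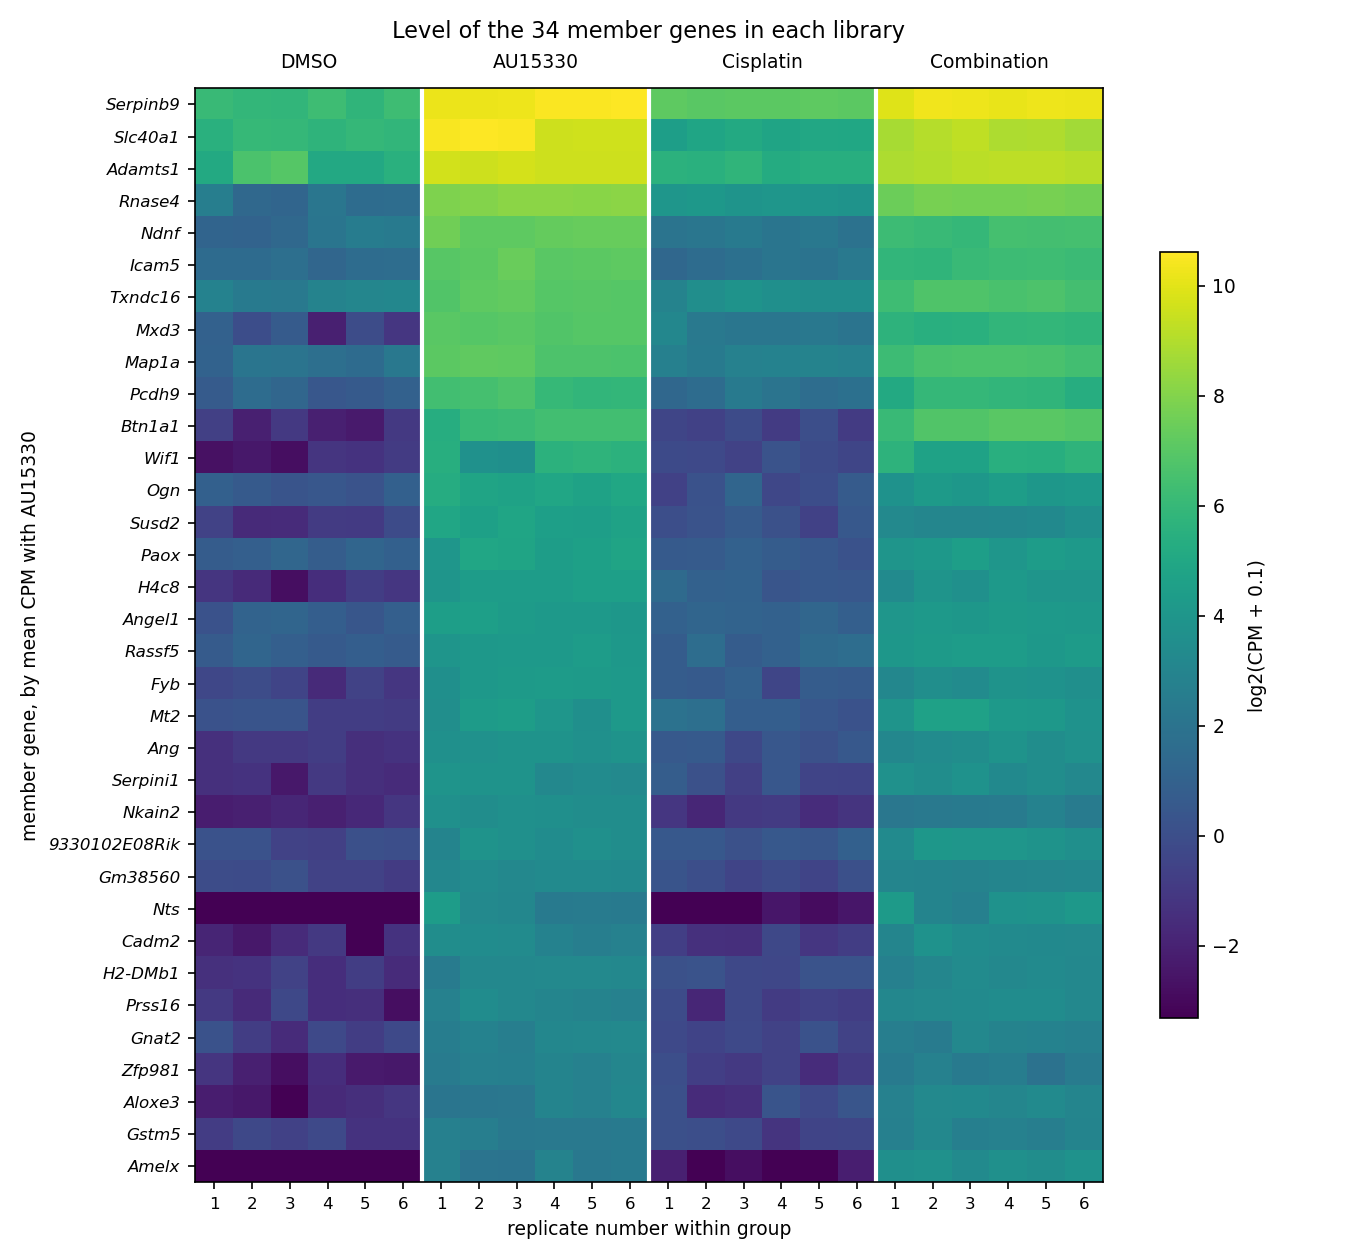
Rows are the 34 genes ordered by mean level with AU15330, columns the 24 libraries grouped by treatment and numbered by replicate, and colour is log2(CPM + 0.1). The AU15330 and combination columns are brighter in every row; Nts and Amelx are darkest, with 0 reads in all 6 DMSO libraries.

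By what their products are known to do, 9 of the 34 genes encode secreted or matrix proteins (Adamts1, Ndnf, Ogn, Rnase4, Ang, Wif1, Nts, Amelx, Serpini1) and 7 encode proteins of the cell surface or transport (Icam5, Pcdh9, Cadm2, Btn1a1, Susd2, Slc40a1, Nkain2). A further 5 encode proteins best known from immune cells or the thymus (Serpinb9, H2-DMb1, Prss16, Fyb, Rassf5), called the immune-cell group. Another 5 encode metal-binding, thioredoxin-domain or metabolic proteins (Mt2, Gstm5, Paox, Aloxe3, Txndc16). The rest were 3 genes of nuclear proteins (Mxd3, H4c8, Zfp981), 3 of cytoskeletal, signalling or other proteins (Map1a, Gnat2, Angel1) and 2 long noncoding RNAs (9330102E08Rik, Gm38560). The grouping was made after the names were seen. The folds in AU15330 over DMSO spanned 12.5 to at least 386 in the secreted group, 19.6 to 256 at the surface, 10.6 to 31.9 in the immune-cell group and 42.9 to 132 among the nuclear proteins.

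Promoter sequences are shown for 7 members that the results below return to: Nts and Amelx because they had no reads in DMSO, Wif1 because of its large fold, Rnase4, by the first of its 2 RefSeq starts, because Ang is listed with the same start, Mt2 and H2-DMb1 because they have an AP-1 match, and Adamts1 because it has a TATA match close to the start. Each is the 300 bases from 250 before the RefSeq start site to 50 after it, on the gene's strand in GRCm38.p6, written 5′ to 3′. Capitals mark every match, on either strand, to the AP-1 motif TGANTCA, the TEAD motif GGAATG, the E-box CACGTG, the TATA box TATAAA, the CCAAT box CCAAT and the GC box GGGCGG. Nts lies at chr10:102490369-102490668 on the minus strand, Amelx at chrX:169187160-169187459 on the minus strand, Wif1 at chr10:121033754-121034053 on the plus strand, Rnase4 at chr14:51090827-51091126 on the plus strand, Mt2 at chr8:94172368-94172667 on the plus strand, H2-DMb1 at chr17:34152941-34153240 on the plus strand and Adamts1 at chr16:85803064-85803363 on the minus strand.
Nts: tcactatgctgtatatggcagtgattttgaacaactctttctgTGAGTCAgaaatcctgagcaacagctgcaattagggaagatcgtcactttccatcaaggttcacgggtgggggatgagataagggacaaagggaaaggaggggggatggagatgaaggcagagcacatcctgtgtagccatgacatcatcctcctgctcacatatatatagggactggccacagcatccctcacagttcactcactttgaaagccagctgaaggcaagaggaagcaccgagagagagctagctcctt
Amelx: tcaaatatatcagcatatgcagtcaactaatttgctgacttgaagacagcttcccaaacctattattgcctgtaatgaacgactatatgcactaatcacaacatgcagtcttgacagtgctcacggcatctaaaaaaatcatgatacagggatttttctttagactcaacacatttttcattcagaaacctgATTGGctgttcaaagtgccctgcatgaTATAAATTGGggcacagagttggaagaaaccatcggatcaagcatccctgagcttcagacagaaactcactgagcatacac
Wif1: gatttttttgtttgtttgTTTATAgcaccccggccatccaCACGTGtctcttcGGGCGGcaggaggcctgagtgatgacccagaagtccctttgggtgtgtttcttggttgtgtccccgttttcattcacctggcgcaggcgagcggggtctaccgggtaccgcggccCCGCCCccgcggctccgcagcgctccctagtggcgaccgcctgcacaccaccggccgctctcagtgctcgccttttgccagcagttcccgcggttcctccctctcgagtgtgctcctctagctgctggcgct
Rnase4: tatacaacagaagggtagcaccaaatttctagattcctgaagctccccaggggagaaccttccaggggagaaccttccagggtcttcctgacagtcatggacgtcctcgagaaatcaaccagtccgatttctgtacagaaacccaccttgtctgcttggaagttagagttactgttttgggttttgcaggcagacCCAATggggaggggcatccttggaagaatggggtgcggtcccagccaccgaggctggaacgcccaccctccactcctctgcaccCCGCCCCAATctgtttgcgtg
Mt2: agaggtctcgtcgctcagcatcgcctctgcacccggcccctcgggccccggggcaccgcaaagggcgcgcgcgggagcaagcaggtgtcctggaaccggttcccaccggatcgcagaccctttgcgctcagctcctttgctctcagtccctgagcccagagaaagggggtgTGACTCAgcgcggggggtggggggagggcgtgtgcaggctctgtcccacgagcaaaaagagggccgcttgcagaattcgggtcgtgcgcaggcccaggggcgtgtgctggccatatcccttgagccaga
H2-DMb1: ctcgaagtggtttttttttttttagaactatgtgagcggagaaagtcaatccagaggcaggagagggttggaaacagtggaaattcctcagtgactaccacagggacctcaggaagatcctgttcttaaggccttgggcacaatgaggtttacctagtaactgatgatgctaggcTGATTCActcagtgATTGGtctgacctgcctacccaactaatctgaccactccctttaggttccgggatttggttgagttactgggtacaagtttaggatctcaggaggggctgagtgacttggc
Adamts1: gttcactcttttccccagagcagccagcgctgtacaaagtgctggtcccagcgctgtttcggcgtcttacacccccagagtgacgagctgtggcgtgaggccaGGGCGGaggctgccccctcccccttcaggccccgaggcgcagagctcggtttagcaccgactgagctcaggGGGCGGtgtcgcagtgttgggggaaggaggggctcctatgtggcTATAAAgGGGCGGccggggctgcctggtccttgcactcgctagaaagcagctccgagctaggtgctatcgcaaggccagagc

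In these sequences the AP-1 match begins 207 bases before the start in Nts, 79 before it in Mt2 and 75 before it in H2-DMb1. The TATA match begins 31 bases before the start in Amelx, where it overlaps a CCAAT match, and 32 before it in Adamts1, where a GC box follows. Across the members, 26 had 29 promoters of their own in the RefSeq table. AP-1 matched 4 of the 29 (13.8%), against 5.37% of the 13006 promoters of tested genes and 7.79% of all 32544 promoters. TATA matched 5 (17.2%), against 7.39% and 13.6%. CCAAT matched 14 (48.3%) against 38.0% and 37.4%, the GC box 17 (58.6%) against 61.7% and 35.9%, TEAD 3 (10.3%) against 12.3% and 14.6%, and CACGTG 2 (6.90%) against 9.76% and 7.17%. The ratio of observed to expected CpG dinucleotides, which is high in CpG-island promoters, had a median of 0.558 in the members, 0.747 in tested genes and 0.387 in the whole table. It exceeded 0.6 in 37.9% of the members' promoters, 67.9% of those of tested genes and 36.0% of all. These shares describe letters in a fixed window and were not tested. Prss16, Slc40a1, Susd2, Btn1a1, Angel1, Aloxe3 and Ndnf had no entry.

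The secreted and matrix genes held the widest range of folds. Adamts1, a metalloproteinase that cleaves the proteoglycans versican and aggrecan, was at 33.6, 40.3 and 123 CPM (lowest, median and highest of 6) with DMSO and at 749, 755 and 845 with AU15330. It was at 37.6, 44.1 and 56.3 CPM with cisplatin and at 473, 562 and 604 with the combination. The 2 high DMSO libraries were replicates 2 and 3, at 101 and 123 CPM, and the other 4 lay between 33.6 and 45.0. Combination over AU15330 was −0.51 ± 0.24 on the log2 scale (SE). It was not called by edgeR's quasi-likelihood test over all groups (adjusted p = 0.0908), although the libraries of the groups did not overlap. With only these 2 groups fitted it was called lower.

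Rnase4 and Ang encode secreted ribonucleases, the second being angiogenin, an inducer of blood vessel growth. Rnase4 was at 2.20, 3.02 and 6.08 CPM with DMSO, 246, 289 and 296 with AU15330, 14.2, 15.4 and 17.1 with cisplatin, and 180, 207 and 218 with the combination. The 4 groups did not overlap with each other. Ang was at 0.262, 0.355 and 0.476 CPM with DMSO, 12.7, 13.6 and 14.01 with AU15330, 0.705, 1.31 and 1.42 with cisplatin, and 8.77, 11.4 and 14.02 with the combination. The genes overlap on the same strand over 10860 bases of chromosome 14 and are listed with the same promoter, so reads of their shared exons could be split by counting and the values of each are uncertain to that extent. Per kilobase of exon, Rnase4 reached 170.5 CPM with AU15330 and Ang 11.2.

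Wif1, a secreted inhibitor that binds Wnt proteins, was at 0.0449, 0.201 and 0.444 CPM with DMSO and at 12.4, 45.5 and 53.1 with AU15330. It was at 0.573, 0.755 and 1.09 with cisplatin and at 26.2, 42.7 and 53.0 with the combination. Replicates 2 and 3 were the low libraries in both AU15330 groups, at 13.1 and 12.4 CPM with AU15330 and 26.2 in both with the combination, while the other 4 AU15330 libraries lay between 42.3 and 53.1. Nts, the precursor of the peptide neurotensin, had no read with DMSO and a total of 5 reads with cisplatin over 6 libraries, against 5.29, 7.05 and 20.7 CPM with AU15330 and 6.69, 13.9 and 19.5 with the combination. Its mean was at least 386-fold higher with AU15330 than with DMSO, taking 3 counts over the 6 DMSO libraries as the floor. The highest AU15330 library was replicate 1, at 20.7 CPM, with the others between 5.29 and 9.27.

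Amelx, the X-linked gene of the enamel protein amelogenin, had no read with DMSO and 7 reads with cisplatin over 6 libraries. It was at 3.87, 5.03 and 7.40 CPM with AU15330 and at 10.1, 12.4 and 13.8 with the combination, so its lowest combination library lay above its highest AU15330 library. Its mean was at least 226-fold higher with AU15330 than with DMSO. Amelx lies within Arhgap6 on the opposite strand, and Arhgap6 was at mean levels of 59.9, 99.0, 56.4 and 96.3 CPM in the DMSO, AU15330, cisplatin and combination groups. Use of strand in counting is not given in the sources used here, so reads of a gene and its antisense partner may be mixed.

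Ndnf, a secreted neurotrophic and vascular factor, was at 2.08, 3.40 and 5.60 CPM with DMSO, 140, 161 and 194 with AU15330, 3.72, 4.26 and 4.98 with cisplatin, and 62.7, 82.0 and 90.5 with the combination. All combination libraries lay below all AU15330 libraries. Ogn, a small leucine-rich proteoglycan of the matrix, had means of 1.44 ± 0.324 CPM with DMSO, 30.0 ± 5.30 with AU15330, 1.15 ± 0.630 with cisplatin and 17.6 ± 2.68 with the combination (SD, n = 6). It lies within Cenpp on the opposite strand, and Cenpp was at 0.798, 31.8, 6.73 and 25.5 CPM in the same order of groups. The levels of Ogn and Cenpp were close in the AU15330 group and differed in the cisplatin group. Serpini1, the protease inhibitor neuroserpin, had means of 0.260 ± 0.1003, 11.97 ± 2.64, 0.937 ± 0.426 and 11.4 ± 1.86 CPM in that order.

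Among surface and transport proteins, Slc40a1 encodes ferroportin, the only known iron exporter of mammalian cells. It was at 46.0, 59.2 and 65.1 CPM with DMSO, 757, 1092 and 1561 with AU15330, 22.5, 30.5 and 35.5 with cisplatin, and 411, 477 and 614 with the combination. The AU15330 libraries fell apart into replicates 1 to 3, between 1396 and 1561 CPM, and replicates 4 to 6, between 757 and 787, and both sets lay above every combination library. Its cisplatin libraries all lay below its DMSO libraries, as for no other member.

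Icam5, telencephalin, an adhesion molecule known from neurons that binds a leukocyte integrin, was at 2.34, 2.86 and 3.28 CPM with DMSO and 126, 139 and 169 with AU15330. It was at 2.42, 3.64 and 4.89 with cisplatin and 56.0, 70.8 and 78.8 with the combination, so combination libraries stood between the cisplatin and the AU15330 libraries without overlap. Btn1a1, a butyrophilin of the milk fat globule membrane, was at 0.105, 0.266 and 0.512 CPM with DMSO, 41.2, 77.3 and 83.9 with AU15330, 0.444, 0.595 and 0.910 with cisplatin, and 68.8, 116 and 134 with the combination. Replicate 1 was its lowest library in both AU15330 groups, at 41.2 and 68.8 CPM, and each of the 6 numbers was higher with the combination than with AU15330 alone.

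Susd2, a sushi-domain membrane protein, was at 0.221, 0.426 and 0.799 CPM with DMSO, 22.5, 25.1 and 30.6 with AU15330, 0.554, 1.05 and 1.498 with cisplatin, and 8.18, 8.93 and 12.2 with the combination. Its combination libraries all lay below its AU15330 libraries. Pcdh9, a protocadherin, had means of 1.89 ± 0.628, 77.2 ± 19.9, 3.48 ± 0.946 and 51.9 ± 11.1 CPM in the DMSO, AU15330, cisplatin and combination groups. Cadm2, a synaptic adhesion molecule, had means of 0.197 ± 0.143, 8.83 ± 2.31, 0.435 ± 0.175 and 10.2 ± 1.88 CPM. Nkain2, a membrane protein that interacts with the sodium pump, had means of 0.187 ± 0.0899, 11.9 ± 0.676, 0.325 ± 0.0985 and 5.47 ± 0.942 CPM.

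Serpinb9, the intracellular inhibitor of the cytotoxic protease granzyme B, had the highest group means of the members with AU15330 and with the combination, although Slc40a1 was above it in AU15330 replicates 1 to 3. It was at 54.3, 65.0 and 78.3 CPM with DMSO, 1175, 1364 and 1526 with AU15330, 132 to 142 CPM with a median of 138 with cisplatin, and 963, 1193 and 1270 with the combination. The cisplatin libraries all lay above the DMSO libraries, while the combination and AU15330 libraries overlapped. Per kilobase of exon Serpinb9 reached 387 CPM with AU15330, against 170.5 for Rnase4, 147 for Adamts1 and 125 for Slc40a1, the next in order. Its closest tested neighbours were Serpinb6b, 24.2 kb before it, and Serpinb9b, 9.46 kb after it, and Serpinb9b was lower with AU15330 (1.82 against 7.12 CPM) and with the combination (4.82 against 47.8 CPM with cisplatin).

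The other genes known from immune cells or the thymus were at lower levels. H2-DMb1, a chain of the H2-DM molecule that loads peptides onto class II, had means of 0.355 ± 0.141, 8.54 ± 1.48, 0.943 ± 0.195 and 8.93 ± 1.40 CPM in the DMSO, AU15330, cisplatin and combination groups. It has a close paralog, H2-DMb2, so counting may have split its reads. Prss16, a serine protease of the thymus, had means of 0.317 ± 0.227, 8.15 ± 1.46, 0.532 ± 0.222 and 9.73 ± 0.908 CPM. Fyb, a T cell adaptor protein, and Rassf5, a Ras effector that regulates lymphocyte adhesion, had AU15330 means of 17.6 ± 2.77 and 17.9 ± 1.77 CPM against 0.550 ± 0.227 and 1.68 ± 0.307 with DMSO.

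Among metal-binding and metabolic proteins, Mt2, a metallothionein that binds zinc and copper, was at 0.444, 0.750 and 1.12 CPM with DMSO, 11.8, 17.1 and 21.2 with AU15330, 1.05, 1.71 and 3.65 with cisplatin, and 13.8, 17.5 and 24.9 with the combination. The DMSO and cisplatin libraries of Mt2 overlapped, as did those of AU15330 and the combination. Mt1, 5.51 kb away and at 64.1 CPM in DMSO, averaged 597 CPM with AU15330 and 406 with the combination against 56.4 with cisplatin. Paox, a peroxisomal polyamine oxidase, averaged 24.6 ± 5.09 CPM with AU15330 and 18.3 ± 2.78 with the combination. Txndc16, a thioredoxin-domain protein of the endoplasmic reticulum, averaged 130.4 ± 14.8 and 97.3 ± 13.3 CPM. Aloxe3, an epidermal lipoxygenase, averaged 6.02 ± 1.90 and 8.63 ± 1.18 CPM, and Gstm5, a glutathione transferase, 5.38 ± 0.761 and 7.13 ± 1.08 CPM.

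Mxd3 encodes a MAX partner that opposes MYC. It was at 0.130, 0.861 and 1.93 CPM with DMSO, 114, 123 and 134 with AU15330, 4.04, 4.48 and 8.67 with cisplatin, and 43.6, 53.4 and 60.3 with the combination. The groups did not overlap, and its fold was 132 in AU15330 over DMSO and 10.2 in combination over cisplatin. H4c8, a histone H4 gene with near-identical copies elsewhere in the genome, averaged 0.282 ± 0.145, 20.6 ± 2.82, 1.74 ± 0.579 and 14.3 ± 2.66 CPM in the DMSO, AU15330, cisplatin and combination groups, with the reads it shares with other H4 copies uncertain. Zfp981, a zinc finger protein in a family of similar genes, averaged 0.162 ± 0.114, 6.94 ± 0.960, 0.510 ± 0.226 and 5.31 ± 1.00 CPM.

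Map1a, a microtubule-associated protein, averaged 3.49 ± 1.00 CPM with DMSO, 122 ± 21.2 with AU15330, 6.65 ± 0.726 with cisplatin and 93.1 ± 10.3 with the combination. Its AU15330 replicates 1 to 3 lay between 137 and 146.5 CPM and replicates 4 to 6 at 105.5 CPM and below. Such a split of the AU15330 libraries without overlap was found in 16 of the 34 members, with replicates 1 to 3 higher in 9 (Adamts1, Angel1, Cadm2, Map1a, Mxd3, Nts, Pcdh9, Serpini1 and Slc40a1) and lower in 7 (Aloxe3, Btn1a1, Gnat2, H4c8, Serpinb9, Wif1 and Zfp981), as in 18.7% and 13.9% of all tested genes. Serpinb9, for example, lay between 1175 and 1233 CPM in replicates 1 to 3 and between 1495 and 1526 CPM in replicates 4 to 6. With DMSO, replicates 1 to 3 lay apart as higher in 4 members and lower in 4 (8.04% and 14.8% of tested genes). With cisplatin this was so in 4 and 3 (14.1% and 16.2%), and with the combination in 1 and 7 (7.49% and 11.4%). The labels name no batch that separates replicates 1 to 3 from 4 to 6. Gnat2, the transducin subunit of cone photoreceptors, averaged 7.63 ± 1.40 CPM with AU15330 and 6.93 ± 1.15 with the combination, and Angel1 averaged 19.7 ± 2.50 and 17.5 ± 1.17 CPM. The noncoding 9330102E08Rik averaged 11.7 ± 2.30 and 14.1 ± 2.65 CPM, and Gm38560, which lies within Txnrd1 on the opposite strand, 9.63 ± 0.672 and 7.99 ± 0.354 CPM.

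**Figure D3:**
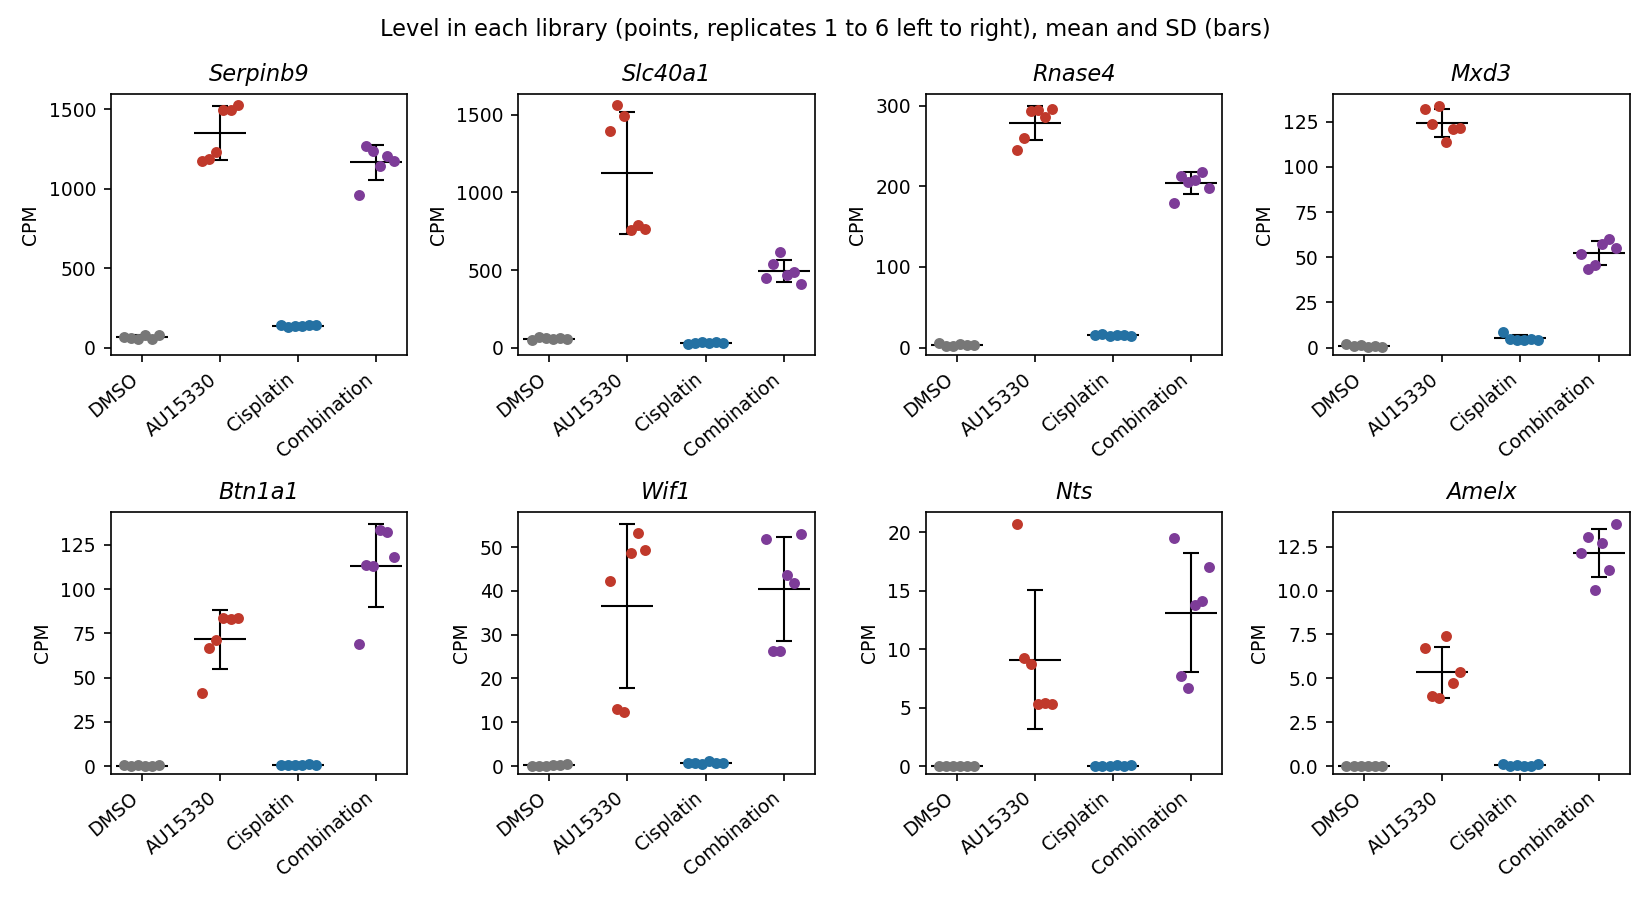
Level in CPM of 8 members in each library, with replicates 1 to 6 of a group from left to right and the group mean and SD as black bars, on linear axes that differ between panels. AU15330 and combination points stand above DMSO and cisplatin points in every panel; Slc40a1 with AU15330 splits into replicates 1 to 3 at 1396 CPM and above and replicates 4 to 6 at 787 and below, and Wif1 replicates 2 and 3 are low in both AU15330 groups.

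Combination against AU15330 asks whether cisplatin changed the level reached with AU15330, and the rule used both means, each against its own control and a level threshold, though not their ratio. The counts below are therefore not independent of how the members were chosen. By edgeR's quasi-likelihood test over all 12941 tested genes with Benjamini-Hochberg adjustment, 14 of the 34 members (41.2%) were lower with the combination and 2 (5.88%) higher at an adjusted p under 0.05, against 19.5% lower and 22.2% higher of all tested genes. The remaining 18 were not called. The median log2 difference was −0.25 in the members and 0.01 in all tested genes.

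The members that fell with cisplatin on top of AU15330 were of every role except the noncoding RNAs. The largest decreases by edgeR were in Susd2 at −1.47 ± 0.15 (log2, SE, adjusted p = 2.68e-08), Mxd3 at −1.26 ± 0.19 (6.04e-06), Slc40a1 at −1.20 ± 0.17 (2.51e-06), Nkain2 at −1.13 ± 0.13 (1.57e-07) and Icam5 at −1.06 ± 0.11 (2.59e-08). Ndnf fell by 1.03 and Ogn by 0.78 on the same scale. The other 7, Fyb, Pcdh9, H4c8, Rnase4, Paox, Txndc16 and Map1a, fell by between 0.40 and 0.59. The surface and transport group held 5 of the 14, with a group median of −1.06, and the secreted group held 3, Ndnf, Ogn and Rnase4.

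Amelx was higher with the combination by 1.18 ± 0.20 (edgeR, adjusted p = 6.13e-05) and Btn1a1 by 0.65 ± 0.16 (adjusted p = 0.00227). Each was higher in all 6 same-numbered pairs of libraries, as was 9330102E08Rik at 0.26 ± 0.15 (edgeR, adjusted p = 0.179), which was not called. Lower in all 6 pairs were 16 members, among them Adamts1 and Gm38560, which were not called. With the replicate number as a block 4 members were called higher, Gstm5 at 0.40 (edgeR, adjusted p = 0.0275) and Aloxe3 at 0.58 (adjusted p = 0.0295) being added, and 14 lower. The call of Paox was lost without replicate 2. Serpinb9 at −0.22 ± 0.09 (adjusted p = 0.0570) and Gstm5 at 0.40 ± 0.17 (adjusted p = 0.0565) were not called, with adjusted p just above the threshold. H2-DMb1 at 0.05 ± 0.15, Rassf5 at 0.08 ± 0.13, Serpini1 at −0.09 ± 0.18, Wif1 at 0.13 ± 0.28 and Nts at 0.51 ± 0.31 were not called, and for Wif1 and Nts the standard error leaves room for changes as large as those called in other members. Nts was called higher without replicate 1, at 0.75 (edgeR, adjusted p = 0.0208). Its same-numbered libraries went both ways: AU15330 replicates 1 to 3 were at 20.7, 9.27 and 8.73 CPM and combination replicates 1 to 3 at 19.5, 7.68 and 6.69, whereas replicates 4 to 6 were at 5.31, 5.37 and 5.29 CPM with AU15330 and at 13.8, 14.1 and 16.98 with the combination. Leaving out replicate 1 of every group raised the count of higher members to 4.

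**Figure D4:**
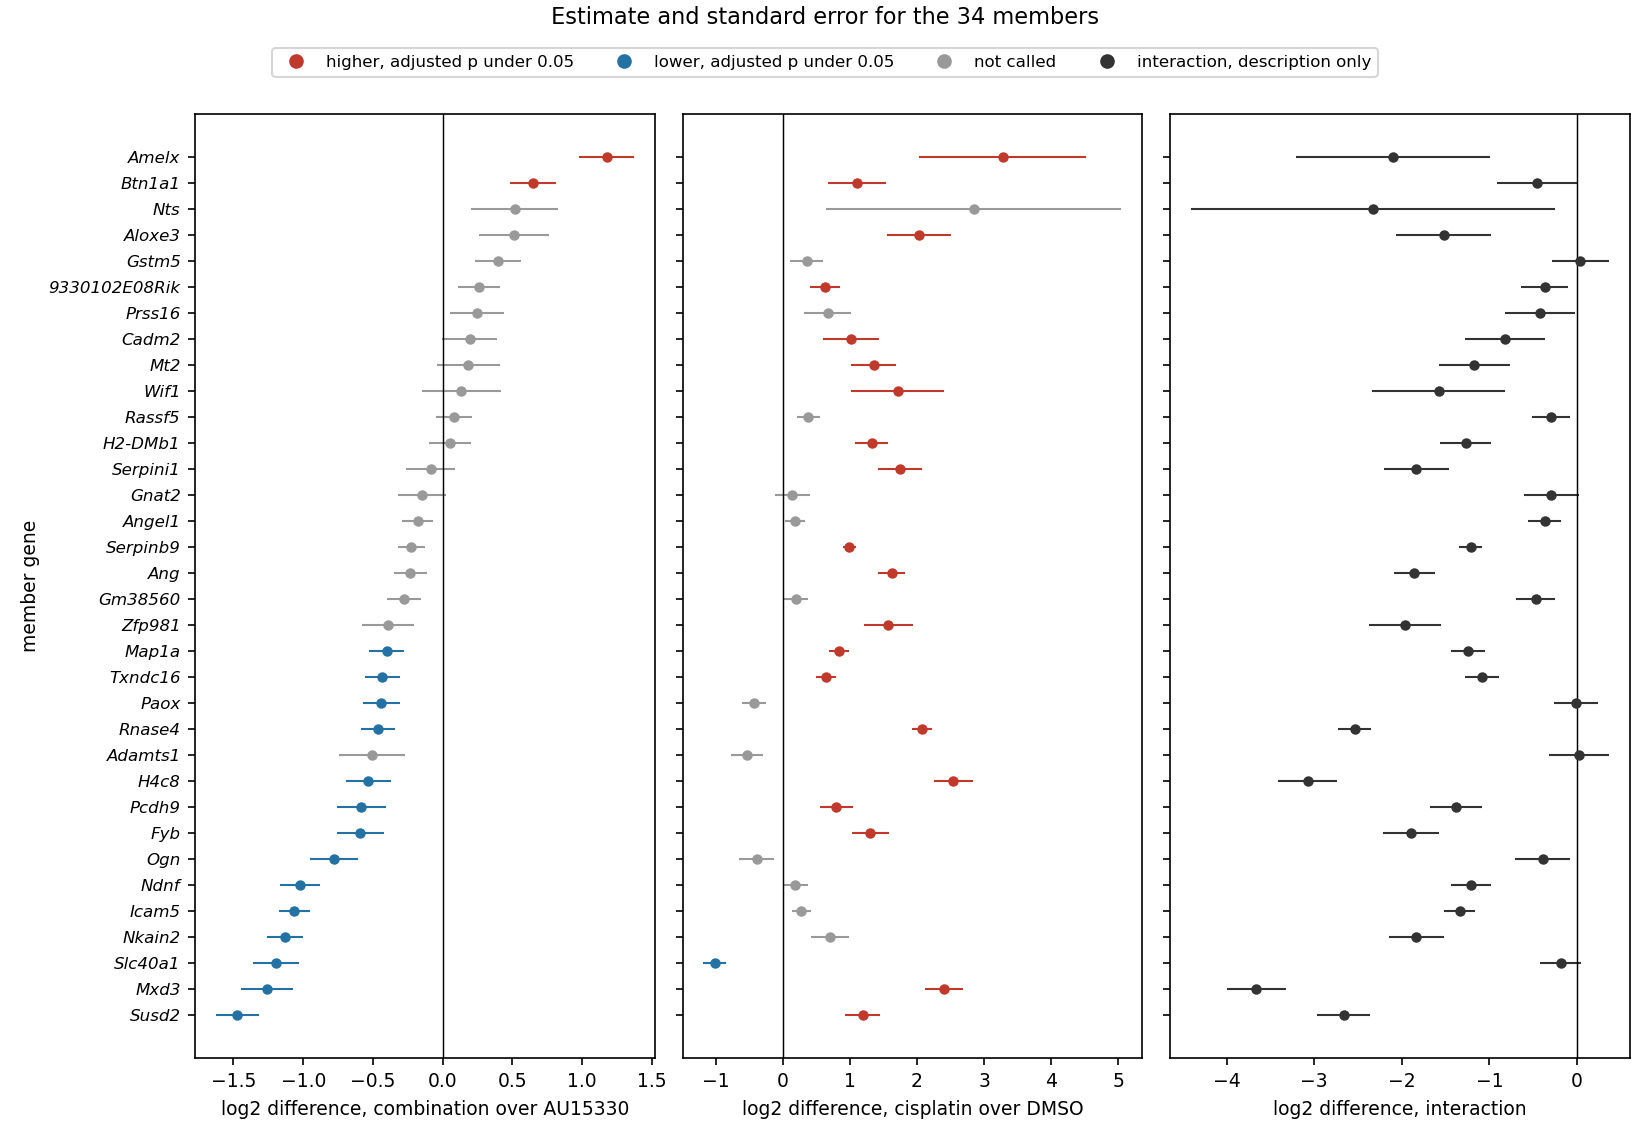
Estimates (points) with standard errors (bars) for the 34 members in combination over AU15330, cisplatin over DMSO and the interaction, on log2 axes that differ in range, ordered by the first. Red and blue mark members called higher and lower by edgeR at an adjusted p under 0.05; 2 and 14 members are marked in the first panel and 20 and 1 in the second, and the interaction is drawn in black with no calls marked.

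Cisplatin against DMSO asks whether cisplatin without AU15330 moved the same genes, and both means were denominators of the rule's folds, so these counts are not independent of the choice of members either. By the same edgeR test 20 of the 34 members (58.8%) were higher with cisplatin and 1 (2.94%) lower, against 26.0% and 25.7% of all tested genes, and 13 were not called. The median log2 difference was 0.92 in the members and −0.004 in all tested genes. Of the 34, 6 (Aloxe3, Amelx, Cadm2, Nkain2, Nts and Zfp981) would not have passed the low-count filter on the DMSO and cisplatin libraries alone and were tested because of their high libraries, and 4 of these 6 were among the 20 called higher. The shares are given as a description. Without overlap between libraries, 9 members were above DMSO and 1 below, against 16.9% and 6.47% of all tested genes. Scaling by library totals in place of TMM gave 3977 tested genes higher and 2529 lower, in place of 3360 and 3329, and 22 members higher and 1 lower.

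Rnase4 rose by 2.07 ± 0.15 on the log2 scale (edgeR, adjusted p = 8.59e-12), H4c8 by 2.54 ± 0.29 (6.65e-08) and Mxd3 by 2.40 ± 0.28 (1.03e-07). Aloxe3 was at 2.03 ± 0.47 (edgeR, adjusted p = 0.000797) and Amelx at 3.28 ± 1.24 (0.0321). Both were tested only because of their high libraries, so nothing is read from these 2 calls. Amelx had 7 reads in all cisplatin libraries against none in DMSO, so its size depends on the prior count. Serpinb9 rose by 0.99 ± 0.10 (adjusted p = 3.27e-09), from a median of 65.0 to 138 CPM. For scale, the cisplatin mean of Rnase4 was 15.5 CPM against 279 with AU15330, and that of Mxd3 5.15 against 124, a distance that follows from the rule. Slc40a1 fell by 1.01 ± 0.17 (adjusted p = 2.06e-05). Several calls on low counts were lost when 1 replicate number was left out. Cadm2 lost its call in 5 of the 6 omissions, Btn1a1 in 4, Amelx and Wif1 in 3 each, 9330102E08Rik in 2 and Pcdh9 in 1. With the replicate block, and also with no low-count filter, Cadm2 lost its call and Paox was called lower.

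The interaction is the log2 fold of combination over cisplatin less that of AU15330 over DMSO. Both of its terms chose the members, and the first was the rarer to reach 8-fold in the table, so its values and calls describe the genes taken and nothing is read from their count. It was called negative by edgeR for 18 of the 34 members (52.9%) and positive for 0, where 15.8% of all tested genes were negative and 17.9% positive. At an unadjusted p under 0.05 the counts were 20 and 0, and DESeq2 also called 0 positive. Scaling by library totals gave 1791 tested genes positive and 2506 negative, in place of 2313 and 2048. The call of Aloxe3 was lost in 4 of the 6 omissions of a replicate number and that of Mt2 in 2. The largest sizes were −3.66 ± 0.34 in Mxd3, −3.08 ± 0.34 in H4c8, −2.66 ± 0.30 in Susd2 and −2.54 ± 0.19 in Rnase4. Of the 18, 15 were called higher with cisplatin than with DMSO and 11 lower with the combination than with AU15330, and 8 were called in both. Icam5, Ndnf and Nkain2 were called lower with the combination and not called in cisplatin against DMSO. Aloxe3, Ang, H2-DMb1, Mt2, Serpinb9, Serpini1 and Zfp981 were called higher with cisplatin and not called in combination against AU15330. These comparisons share libraries and are not separate evidence. Slc40a1, at −1.01 in cisplatin over DMSO and −1.20 in combination over AU15330, had an interaction of −0.19 ± 0.24, and 8 members (Adamts1, Angel1, Gm38560, Gnat2, Gstm5, Nts, Prss16, Rassf5) were called in none of the 3 comparisons.

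The 34 members lay on 17 chromosomes in the GENCODE M21 annotation of GRCm38, with 6 on chromosome 13, 5 on chromosome 10 and 4 on chromosome 14, which carried 3.61%, 4.82% and 3.30% of the tested genes. Annotation calls 32 of them protein coding. Within 1 Mb of each other were Btn1a1 and H4c8, 65.2 kb apart on chromosome 13, Rnase4 and Ang, which overlap, and Gstm5 and Gnat2, 194 kb apart on chromosome 3. Slc40a1 spans chr1:45908068-45926523 on the minus strand, Serpinb9 chr13:33003250-33017957 on the plus strand, Icam5 chr9:21032073-21039036 on the plus strand, Btn1a1 chr13:23456992-23465901 on the minus strand and Mxd3 chr13:55325168-55329823 on the minus strand.

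The nearest tested gene on each side that did not overlap the member was read as a measure the rule did not use. Overlapping genes, some of them closer, are left out of these counts. Within 100 kb there were 46 such neighbours of 30 members. By edgeR 26 of the 46 (56.5%) were higher with AU15330 than with DMSO and 14 (30.4%) lower, where 36.2% and 37.2% of all tested genes were. In combination over cisplatin 20 (43.5%) were higher and 11 (23.9%) lower, where 35.4% and 32.7% of all tested genes were. The median log2 fold change of the neighbours was 0.42 and 0.17 in the 2 comparisons. Over a log2 fold change of 1 there were 17 neighbours with AU15330 and 13 in combination over cisplatin. The highest with AU15330 was H3c8, 3.90 kb from H4c8 and at a mean of 0.634 CPM with AU15330, at 4.79 and 1.02. Examples of neighbours higher in both were Mt1, next to Mt2, at 3.08 and 2.79, Hes7, 1.84 kb from Aloxe3, at 2.83 and 2.73, and Adamts5, a related protease gene 53.1 kb from Adamts1, at 2.02 and 1.60. Rab24, next to Mxd3, was at 1.92 and 1.31. Neighbours also fell: Gstm2, 83.0 kb from Gstm5, at −8.49 and −6.61, Ero1l, 62.8 kb from Txndc16, at −4.50 and −1.19, and Dab2, 82.1 kb from Fyb, at −2.67 and −2.60. The neighbour shares were not tested against the table, and genes of a family next to each other can share reads.

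**Figure D5:**
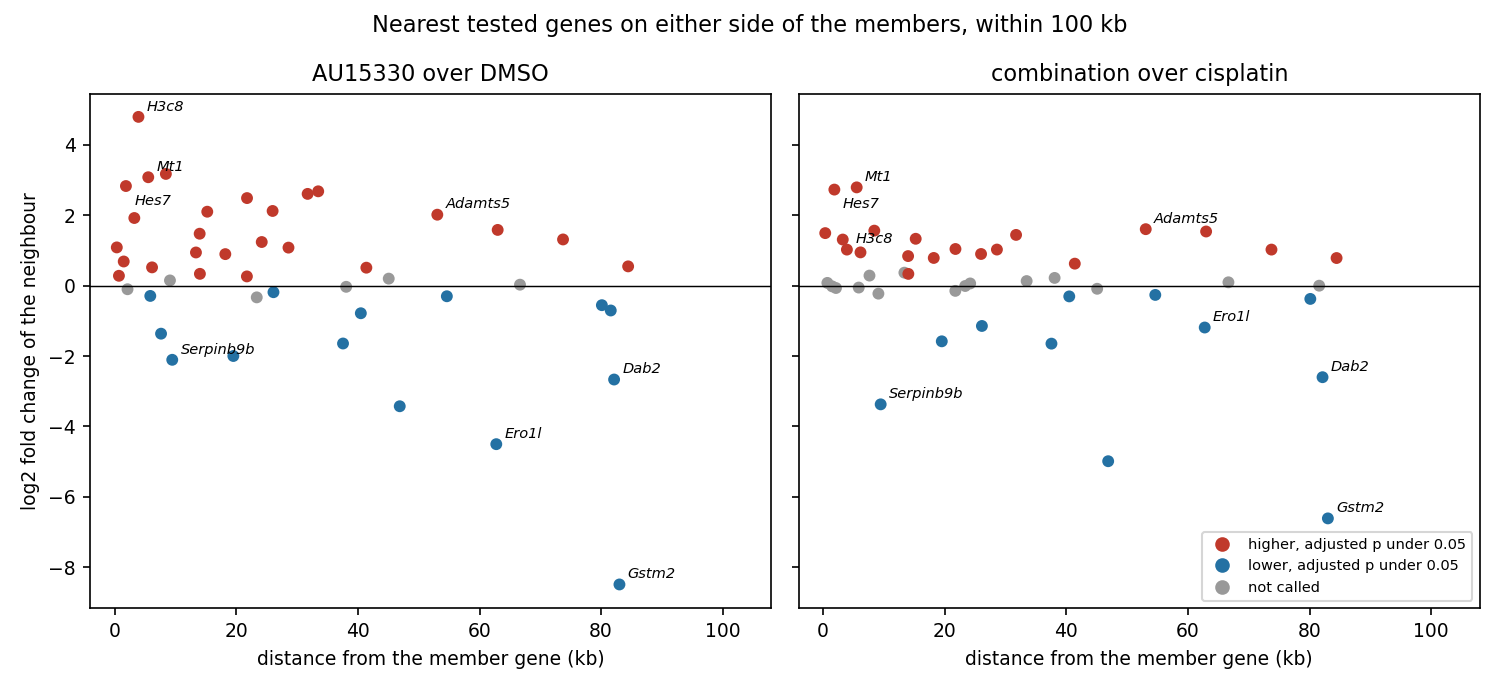
Each point is 1 of 46 nearest tested genes within 100 kb of a member that did not overlap it. Points are placed by distance in kb and log2 fold change in AU15330 over DMSO (left) and combination over cisplatin (right). Red and blue mark genes called higher and lower by edgeR. Of the 46, 26 are red and 14 blue on the left, 20 red and 11 blue on the right.

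Reads of opposite-strand partners were compared where a member overlapped another gene. Gstm5 overlaps 4933431E20Rik over 393 bases, and that gene averaged 0.213, 4.08, 0.641 and 6.27 CPM in the DMSO, AU15330, cisplatin and combination groups, where Gstm5 itself averaged 0.510, 5.38, 0.705 and 7.13 CPM. Mxd3 overlaps Prelid1 over 105 bases, and Prelid1 averaged 228, 746, 182 and 362 CPM, above the level of Mxd3 in each group. Map1a overlaps Ppip5k1 over 272 bases at 27.5, 64.8, 27.2 and 48.6 CPM, Paox overlaps Echs1 over 678 bases at 78.0, 144, 61.6 and 103 CPM, and Rassf5 overlaps Eif2d over 11249 bases at 49.9, 63.7, 42.5 and 59.9 CPM. Txnrd1, within which Gm38560 lies over 13276 bases, averaged 289, 248, 204 and 403 CPM in the same order, so it was lower with AU15330 than with DMSO by these means, unlike the other partners given. The part of these partners in the members' values was not tested.

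Lists of related genes were read for context. Of 28 SWI/SNF subunit genes 25 were tested, and 8 were higher and 9 lower with AU15330 than with DMSO (36.2% and 37.2% of all tested genes), with a median log2 fold change of −0.02. Of 31 Polycomb subunit genes, the repressive complexes that oppose SWI/SNF at many silent genes, all 31 were tested, and 11 were higher and 11 lower, with a median of 0.04. Among 49 Wnt signalling genes Wif1 was the member, and of the 21 others tested 4 were higher and 14 lower with AU15330. Among 22 adhesion genes of the immunoglobulin superfamily Btn1a1, Cadm2 and Icam5 were members, and of the 12 others tested 4 were higher and 5 lower. In combination over cisplatin, where 35.4% of all tested genes were higher and 32.7% lower, 8 of the 25 SWI/SNF genes were higher and 6 lower, and 13 of the 31 Polycomb genes were higher and 8 lower. Of the 21 other Wnt genes 5 were higher and 13 lower, and of the 12 other adhesion genes 3 and 7.

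No neuronal, muscle, fibroblast, endothelial, epithelial, mesothelial, germline, imprinted or Notch gene of the lists read was a member, nor was a homeobox gene of the list read, which leaves out the Hox and Dlx genes that the rule set aside by symbol. Nts, Icam5, Cadm2, Serpini1 and Map1a are also known from neurons. The summed level of 24 neuronal markers, of which 2 reached 5 CPM in any group, ran from 172 to 302 CPM with DMSO and from 76.5 to 98.1 with AU15330. Of the 8 neuronal markers tested, 5 were higher and 2 lower with AU15330, with a median log2 fold change of 1.32. The sum and the median thus differ in direction. In combination over cisplatin 2 of the 8 were higher and 2 lower, with a median of 0.13. Of the 9 mesothelial markers tested, 8 were lower with AU15330 than with DMSO by edgeR and 9 lower in combination over cisplatin, and the summed level of that list ran from 3436 to 5205 CPM with DMSO and from 1306 to 1445 with AU15330. Krt19 averaged 1679 ± 420.3 CPM with DMSO and 7.22 ± 3.81 with AU15330, and Wt1 796 ± 61.0 and 632 ± 80.0. Of the 11 epithelial markers tested, 2 were higher and 6 lower with AU15330 (median log2 fold change −2.26), and the summed level of that list, which shares Krt8, Krt18 and Krt19 with the mesothelial list, ran from 2115 to 3523 CPM with DMSO and from 403 to 489 with AU15330.

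The other lists were counted by the same edgeR test in AU15330 over DMSO. Of the 8 skeletal and cardiac muscle markers tested 7 were lower (median −4.32), of the 4 smooth muscle markers 3 were lower, and all 4 endothelial markers tested were lower (median −1.28). Of the germline genes 5 of 6 tested were higher and 1 lower (median 2.01), and their summed level ran from 8.94 to 12.3 CPM with DMSO and from 34.7 to 46.9 with AU15330. Of the fibroblast markers 5 of 7 were higher and 2 lower (median 0.90), while their summed level ran from 275 to 649 CPM with DMSO and from 171 to 281 with AU15330. The counts were 7 higher and 7 lower of 17 homeobox genes, 2 and 5 of 7 imprinted genes, 7 and 5 of 14 Notch genes and 1 and 1 of 2 leukocyte markers. In combination over cisplatin 2 fibroblast markers were higher and 2 lower (median −0.06). There 3 Notch genes were higher and 9 lower, with a median of −0.98 against 0.15 in AU15330 over DMSO. Germline genes gave 4 and 1, homeobox genes 5 and 5, imprinted genes 2 and 4, leukocyte markers 1 and 1 and epithelial markers 1 and 7. All 8 skeletal and cardiac muscle, all 4 smooth muscle and all 4 endothelial markers were lower. The part of these lists in the members' values was not tested.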

How the data were processed

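Bulk poly(A) RNA from 24 libraries of ID8 P53 KO cells was sequenced by the authors on 2 lanes each. The submitters' processing notes name STAR 2.7.1a, DESeq2 1.36.0 and build mm10, and the counting tool, annotation and use of strand are not given in the sources used here. The deposited values are raw counts per gene, 48 columns in all, and lanes were summed per library (chi-square per degree of freedom between lanes 1.36 to 1.47, between replicates 2.30 to 122).

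CPM was computed on library totals. Tests used edgeR 4.0.16 (TMM, filterByExpr, quasi-likelihood, 12941 genes, all 24 libraries, 20 residual degrees of freedom) in R 4.3.3 with limma 3.58.1, with Benjamini-Hochberg adjustment over all tested genes and a threshold of 0.05. All 34 members passed the filter; each was high in 2 groups, so this says nothing about them. The script was tested on simulated data. Gene positions came from GENCODE M21 and promoters from RefSeq GRCm38.p6, the same assembly as mm10. Floors cover counting error only. Alternatives were DESeq2 1.42.0, other scalings, no filter, a replicate block, the compared groups alone and each replicate number left out.

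Same-numbered libraries of different groups correlated at a mean of 0.248 (26 of 36 pairs over 0.1). All 6 pairs of AU15330 with the combination were over 0.1 (0.222 to 0.677), so numbers were taken to pair those libraries. The counts with the replicate block stand beside that comparison. Apart from values marked as from the block, its estimates and adjusted p-values come from the fit without it. All 6 pairs of AU15330 with cisplatin were over 0.1 as well (0.13 to 0.535), and those groups were not compared directly. Of the 6 pairs of cisplatin with DMSO 4 were, so those were not taken as paired. The members and lists were chosen with earlier results of these data known. Values were named for the 25 members with the highest level under AU15330 and the combination, the 10 largest folds, the 5 largest called changes each way in each comparison, the members of the lists read and the 5 genes on each side of the fold threshold; overlaps and neighbours were named after their values were seen. No batch or date is given by the labels.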

Additional observations from a re-analysis of the deposited data

Results flagged for a closer look

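A library stood far from the other 5 of its group, by Dixon's ratio of the gap beside it to the spread of all 6 at the 95% level, in 10 of the 132 sets of 6 values examined, where chance gives about 6.6. Replicate 1 was the library in 7 of the 10. It was low for Btn1a1 with the combination (68.8 CPM against 113 to 134), and with AU15330 for Fyb (12.2 against 17.1 to 19.8), H2-DMb1 (5.53 against 8.97 to 9.35) and H4c8 (15.4 against 20.5 to 23.4). It was high for Nts (20.7 against 5.29 to 9.27) and Ogn (39.8 against 25.6 to 30.9) with AU15330 and for Mxd3 with cisplatin (8.67 against 4.04 to 4.95). The other 3 were Map1a in cisplatin replicate 2 (5.27 CPM against 6.61 to 7.40), Nkain2 in combination replicate 5 (7.24 against 4.57 to 5.52) and Susd2 in combination replicate 6 (12.2 against 8.18 to 9.60).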

How the results depend on the processing

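Of 1184 values of single members under other settings, 1106 kept their direction and their side of the threshold, 27 lost a call, 37 gained one and 14 changed sign, none of the 14 called in the first place. The rule found 106 genes at 4-fold, 10 at 16-fold, 22 at a mean of 10 CPM and 73 at 1 CPM, and 30 to 36 with a replicate number left out. The members' median log2 difference in AU15330 over DMSO, 4.77 with a prior count of 2, was 5.04 with 0.5 and 4.29 with 5 (4.66 to 4.82 without a replicate). Members higher in combination over AU15330, 2 in the report, were 4 with the replicate block and 4 with only the compared groups, and 2 to 4 with a replicate left out. Members lower in cisplatin over DMSO, 1 in the report (Slc40a1), were 2 with no low-count filter and 2 with the replicate block, and 1 to 3 with a replicate left out (3 without replicate 1, 2 without replicate 3). The cause was not tested. The block changed no other count by over 1.5 times, and 32 of 72 comparisons matched a library best to its own number.

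Where signs turned, the values were these. Combination over AU15330 of H2-DMb1 ran from −0.0131 (without replicate 1) to 0.0854 with a replicate left out, and cisplatin over DMSO of Gnat2 from −0.0726 (without replicate 5; −0.0283 without replicate 3) to 0.314. The interaction of Gstm5 ran from −0.254 (without replicate 4) to 0.226 and was −0.0266 with library totals, and that of Paox ran from −0.121 to 0.0808 (without replicate 2). That of Adamts1 ran from −0.240 (without replicate 3) to 0.192, and was −0.00101 with DESeq2, −0.00182 with DESeq2 size factors, −0.0524 with library totals and −0.0833 with the replicate block. Serpinb9 was called lower in combination over AU15330 in 7 of 12 settings. Scaling by library totals moved the median of all genes in AU15330 over DMSO by 0.13, with 5618 genes higher and 3973 lower in place of 4681 and 4816. Low counts in DMSO and cisplatin limit the folds over those groups for many members, and 2 members had no DMSO read. Serpinb9, Slc40a1 and Adamts1 had 493 reads or more in every DMSO and cisplatin library.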
